A study of Mus musculus with 24 samples.

Results

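The genes described here encode ligands, a receptor and direct targets of bone morphogenetic protein (BMP) signalling: the ligands *Bmp2*, *Bmp4*, *Bmp5* and *Bmp6*, the receptor *Bmpr1a*, the inhibitory SMAD *Smad6* and the targets *Id1*, *Id2* and *Id3*. They were chosen by symbol, 9 of the 53392 genes in the files. No threshold on their levels was used, but earlier results of these data were known when they were chosen. Bulk RNA-seq covered 24 libraries, 3 biological replicates in each of 8 groups, of muscle stem cells (MuSCs) and their progeny from *mdx* mice (C57BL/10ScSn-*Dmd*mdx/J, which lack dystrophin) and from age- and sex-matched WT mice (C57BL/10ScSnJ). All libraries, WT included, came from mice that carried the Pax7-nGFP reporter, a nuclear GFP driven by *Pax7*, and the age of these mice is not given in the sources used here. Freshly isolated MuSCs (FiMuSCs) came from uninjured hindlimb muscle, and activated MuSCs (AMuSCs) from hindlimb muscle 3 days after cardiotoxin, a snake venom toxin that destroys myofibres. Fluorescence sorting of both kept cells with GFP and α7-integrin and removed those with the lineage proteins CD31, CD45, SCA1 or CD11b. Primary myoblasts, which are dividing MuSC progeny, were purified with magnetic beads and grown on collagen in serum with basic FGF, and myotubes were formed from them by 2 days in horse serum. The RNA kit of the sorted cells was not that of the cultured cells, and between these the kit, the culture and the cell state cannot be told apart. Between myoblasts and myotubes the medium changed as well, so the medium and the cell state cannot be told apart there.

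BMPs are secreted dimers that bring type I receptors, such as BMPR1A, together with type II receptors at the cell surface. The type I receptor phosphorylates SMAD1, SMAD5 and SMAD9, which enter the nucleus with SMAD4 and activate target genes. The best known direct targets are the *Id* genes, whose products bind E proteins and keep MYOD1 and the other myogenic factors from activating muscle genes, and *Smad6*, whose product blocks the receptor and SMAD1 as negative feedback. In muscle, BMP signalling is known for favouring the growth of MuSCs and myoblasts over their differentiation.

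Levels are in CPM, each count taken per common library size, with the 24 libraries scaled together by TMM, which sets the bulk of genes to the same level in each library, and they are listed for replicates 1, 2 and 3. Library totals ranged from 37280196 to 64429222 counts. Log2 fold changes with their standard errors (SE) and adjusted p-values are from edgeR's quasi-likelihood test over all genes with Benjamini-Hochberg adjustment, and a gene was called at an adjusted p under 0.05. With 3 libraries a group, the smallest two-sided p of an exact permutation test is 0.1. As these are bulk libraries, fewer cells of a type and less RNA per cell cannot be told apart.

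The labelled states carried their own markers. *Pax7*, the transcription factor of MuSCs, was highest in FiMuSCs, at 1490 to 1971 CPM in *mdx* and 1398 to 1956 CPM in WT. *Myog*, the factor of terminal differentiation, was highest in myotubes, at 1218 to 2339 CPM in *mdx* and 1296 to 1453 CPM in WT. A few libraries stood apart in markers of other cells. The summed level of 10 leukocyte and macrophage markers was 4373, 151 and 303 CPM in *mdx* AMuSCs, against 10.98, 10.5 and 29.4 CPM in WT AMuSCs. In *mdx* myoblasts it was 4.71, 181 and 7.86 CPM, and replicate 2 of that group also had 20.8 CPM of *Calcr*, a marker of quiescent MuSCs, against 0.103 and 1.09 CPM in the other *mdx* myoblast libraries. The summed level of 10 endothelial markers was 38.0 to 73.0 CPM in *mdx* AMuSCs against 322 to 839 CPM in *mdx* FiMuSCs, and 26.1 to 55.4 CPM in WT AMuSCs against 317 to 391.7 CPM in WT FiMuSCs. Among the *mdx* FiMuSC libraries, replicate 1 stood apart in the endothelial marker *Cdh5*, at 169 CPM against 58.2 and 62.7 CPM. Results that these markers move with are given below with the marker values beside them.

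The reference promoters of *Id2*, *Id3* and *Smad6* are shown because these targets fell together in myotubes and because each holds letters that SMAD proteins are known to bind. They span 250 bases before to 50 bases after the RefSeq start site, are from RefSeq on GRCm38.p6 and are written 5′ to 3′ on the gene's strand, with the matched letters in capitals. *Id2* lies on the minus strand (chr12:25096043-25096342), *Id3* on the plus strand (chr4:136143572-136143871) and *Smad6* on the minus strand (chr9:64022010-64022309).
Id2: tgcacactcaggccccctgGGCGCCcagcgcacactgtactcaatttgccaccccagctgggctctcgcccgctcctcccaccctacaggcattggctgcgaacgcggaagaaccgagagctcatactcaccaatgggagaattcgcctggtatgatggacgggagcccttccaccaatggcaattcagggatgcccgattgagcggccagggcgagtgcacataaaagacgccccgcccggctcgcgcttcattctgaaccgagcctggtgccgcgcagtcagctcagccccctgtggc
Id3: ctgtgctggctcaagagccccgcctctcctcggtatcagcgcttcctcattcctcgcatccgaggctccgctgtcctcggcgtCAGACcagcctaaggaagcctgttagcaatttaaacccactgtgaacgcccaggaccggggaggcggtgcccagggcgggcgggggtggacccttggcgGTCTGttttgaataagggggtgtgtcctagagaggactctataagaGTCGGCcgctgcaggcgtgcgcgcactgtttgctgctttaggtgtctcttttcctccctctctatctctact
Smad6: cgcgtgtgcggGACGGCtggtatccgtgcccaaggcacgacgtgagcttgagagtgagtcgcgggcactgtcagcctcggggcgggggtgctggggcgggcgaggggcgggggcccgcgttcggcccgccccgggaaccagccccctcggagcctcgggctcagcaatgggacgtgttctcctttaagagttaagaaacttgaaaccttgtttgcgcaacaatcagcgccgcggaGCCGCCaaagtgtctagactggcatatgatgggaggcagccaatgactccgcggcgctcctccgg
GGCGCC was searched on both strands, as were the letters GTCTG and, with N for any base, also GCCGNC. The first motif, GGCGCC, was found once in *Id2*, at -231 from the start site, and 11.9% of the 32851 promoters in the table hold it. *Id3* held GTCTG at -68, its reverse complement CAGAC at -167 and the reverse complement of GCCGNC at -22. GTCTG is in 49.6% and GCCGNC in 33.2% of all promoters of this length. *Smad6* held GCCGNC at -15 and its reverse complement at -239. Of the other members with an entry, the ligand genes *Bmp6* (5 matches) and *Bmp5* (1 match) and the receptor gene *Bmpr1a* (6 matches) also held such letters, some of them overlapping or palindromic matches counted on both strands, and the window of *Bmp4* held none. Of the 9 members, 7 were matched in the table, all but *Bmp2* and *Id1*. These matches describe the letters in the window and say nothing of binding in these cells.

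*Bmp4* and *Bmp6* were the main BMP ligand transcripts of FiMuSCs, and both were far lower in AMuSCs and below 2 CPM in culture in all but 1 library. *Bmp6* (chromosome 13, 38345107 to 38500302), which in the liver is also the ligand that controls hepcidin, was at 369, 307 and 268 CPM in *mdx* FiMuSCs against 317, 293 and 303 CPM in WT FiMuSCs. In AMuSCs it was at 46.3, 38.3 and 44.1 CPM in *mdx* against 9.96, 10.4 and 9.59 CPM in WT. In each genotype all AMuSC libraries lay below all FiMuSC libraries, and the *mdx* AMuSC libraries all lay above those of WT. *Bmp6* fell by 2.88 ± 0.18 (SE) on the log2 scale with injury in *mdx* (adjusted p = 0.000143) and by 4.84 ± 0.09 in WT (adjusted p = 1.63e-07).

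*Bmp4* (chromosome 14, 46383520 to 46390669), a ligand best known from embryonic mesoderm and bone, followed the same order over the states. It was at 222, 162 and 135 CPM in *mdx* FiMuSCs against 214, 118 and 114 CPM in WT FiMuSCs, and at 13.4, 15.9 and 17.2 CPM in *mdx* AMuSCs against 9.03, 7.23 and 7.32 CPM in WT AMuSCs. The genotypes overlapped in FiMuSCs and did not overlap in AMuSCs. *Bmp4* fell with injury by 3.48 ± 0.23 on the log2 scale in *mdx* (adjusted p = 0.000163) and by 4.14 ± 0.30 in WT (adjusted p = 3.92e-05). Over the 24 libraries the log2 CPM of *Bmp4* and *Bmp6* had a Pearson correlation of 0.97, a description over libraries that share their groups.

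The low culture levels of both ligands had a single exception. *Bmp6* was at 0.189, 28.0 and 1.64 CPM in *mdx* myoblasts against 0.451, 0.232 and 0.102 CPM in WT myoblasts, and *Bmp4* at 0.103, 13.1 and 0.531 CPM against 0.324, 0.179 and 0.170 CPM. The high library in both genes was *mdx* replicate 2, which is also the one with *Calcr* and leukocyte markers. In myotubes *Bmp6* was at 0.880, 0.0545 and 0.598 CPM in *mdx* against 0.115, 0.439 and 0.251 CPM in WT. *Bmp4* was at 0.117, 0.218 and 0.637 CPM in *mdx* myotubes, while 2 of the 3 WT myotube libraries held no count and the other was at 0.0626 CPM. Without *mdx* replicate 2, the log2 fold change of *mdx* over WT in myoblasts moved to 1.67 for *Bmp6* (5.09 with it) and to 0.42 for *Bmp4* (4.17 with it). Neither was called with or without it by edgeR on the myoblast libraries alone. With that library kept, DESeq2 called *Bmp6* (5.25, adjusted p = 0.0334). The edgeR fit of all 24 libraries called *Bmp6* (5.06, adjusted p = 0.0244) and *Bmp4* (4.14, adjusted p = 0.0491).

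**Figure D1:**
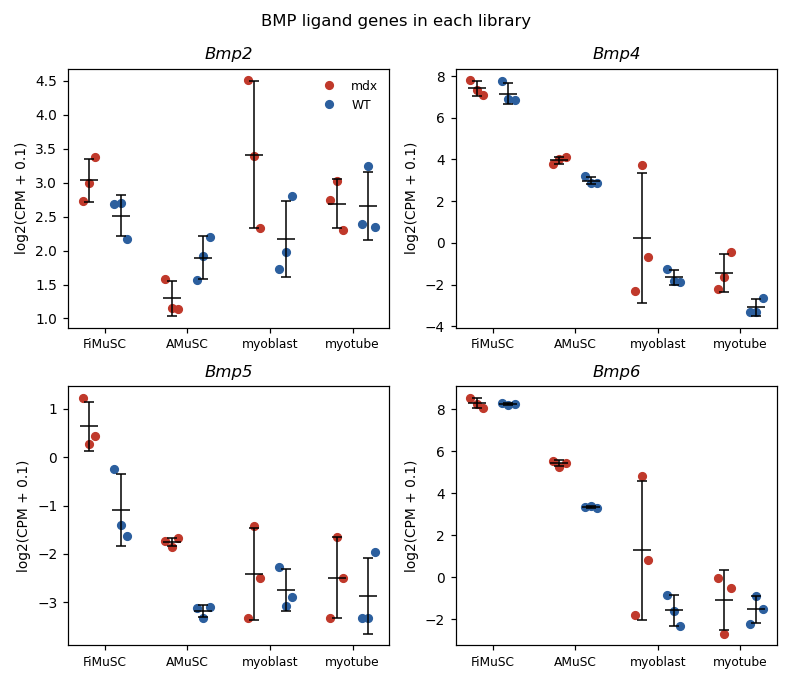
Level of each BMP ligand gene in each of the 24 libraries as log2(CPM + 0.1), by cell state, with *mdx* (red) left of WT (blue); black marks are the mean and SD of 3 libraries. *Bmp4* and *Bmp6* are highest in FiMuSCs and lower in AMuSCs, and a single *mdx* myoblast library (28.0 CPM of *Bmp6*) lies far above the other cultured libraries.

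*Bmp2* and *Bmp5* were the minor ligands. *Bmp2* (chromosome 2, 133552159 to 133562885), a potent inducer of bone, was at 6.54, 7.85 and 10.3 CPM in *mdx* FiMuSCs against 6.30, 6.40 and 4.39 CPM in WT FiMuSCs, and at 2.91, 2.13 and 2.10 CPM in *mdx* AMuSCs against 2.86, 3.69 and 4.50 CPM in WT AMuSCs. It was the sole ligand of the 4 that remained above 2 CPM in every library, at 4.84 to 8.04 CPM in *mdx* myotubes and 5.01 to 9.33 CPM in WT myotubes. In myoblasts it was at 22.6, 10.4 and 4.95 CPM in *mdx* against 3.23, 3.86 and 6.85 CPM in WT, with overlap between the groups. *Bmp2* fell with injury in *mdx*, by 1.78 ± 0.29 on the log2 scale (adjusted p = 0.00451). In WT its log2 fold change was -0.54 ± 0.25 (adjusted p = 0.0868).

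*Bmp5* (chromosome 9, 75775364 to 75900310), known for its part in skeletal patterning, was near the detection limit outside FiMuSCs. Its counts were 114, 51 and 69 in *mdx* FiMuSCs against 32, 14 and 10 in WT FiMuSCs, and 11, 10 and 14 in *mdx* AMuSCs against 1, 0 and 1 in WT AMuSCs. All *mdx* libraries were above all WT libraries in both states. Its fitted fall with injury was 2.75 on the log2 scale in *mdx* (adjusted p = 0.00569) and 3.13 in WT (adjusted p = 0.0016), where the size depends on the prior count because WT AMuSCs hold 2 counts in all. The summed counts per total count were 0.122 of the FiMuSC level in *mdx* AMuSCs (95% exact interval 0.0831 to 0.175) and 0.0272 in WT AMuSCs (0.00321 to 0.103), intervals that cover counting error only. In AMuSCs *Bmp5* was too low for the filter of the *mdx* against WT test and was not tested there.

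Levels can be compared between genes only per transcript length. In TPM, which divides by length, the gene sums of *Bmp4* and *Id3* were dominated by short annotated transcripts, a 258-base transcript of *Bmp4* (382 of 460 TPM in WT FiMuSCs) and a 277-base transcript of *Id3* (329 of 644 TPM). TPM is therefore given over transcripts of at least 900 bases, a limit set after these values were seen. On that scale *Bmp4* was at 82.5 ± 21.9 TPM in *mdx* FiMuSCs and 69.4 ± 24.4 TPM in WT FiMuSCs (SD, n = 3 each). *Bmp6* was at 67.2 ± 11.8 TPM in *mdx* FiMuSCs and 64.2 ± 1.94 TPM in WT FiMuSCs, so these ligands overlapped in level on that scale. The limit also took out 42.4% and 44.3% of the *Bmp6* TPM in these groups. Over all transcripts *Bmp4* was at 536 and 460 TPM there, against 117 and 115 TPM of *Bmp6*. Within the limit *Bmp2* was at 1.98 ± 0.427 TPM in *mdx* FiMuSCs and 1.35 ± 0.243 TPM in WT FiMuSCs, and *Bmp5* at 0.341 ± 0.165 TPM and 0.0959 ± 0.0632 TPM in the same groups. *Id3* was at 285 ± 74.6 TPM in *mdx* FiMuSCs and 192 ± 106 TPM in WT FiMuSCs, above *Bmpr1a* at 22.3 ± 0.793 TPM and 21.03 ± 0.13 TPM.

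The receptor gene *Bmpr1a* (chromosome 14, 34410734 to 34503341) varied little over the 8 groups. Its group means ran, from low to high, from 122 ± 17.9 CPM in *mdx* AMuSCs to 184 ± 7.08 CPM in *mdx* myotubes, and of the 7 neighbouring pairs in that order 1 did not overlap, *mdx* myoblasts (153 to 171 CPM) over WT AMuSCs (119 to 141 CPM). *Bmpr1a* was not called in any of the 10 comparisons. Its log2 fold change with injury was -0.08 ± 0.15 in *mdx* and 0.15 ± 0.09 in WT, and with differentiation 0.24 ± 0.09 in *mdx* and 0.02 ± 0.07 in WT.

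The targets *Id1*, *Id2* and *Id3* were high in myoblasts, where *Bmp4* and *Bmp6* were low in all but 1 library, and had their lowest group means in *mdx* myotubes. *Id1* (chromosome 2, 152736251 to 152737410), a widely used readout of BMP signalling, was at 182, 279 and 342 CPM in *mdx* myoblasts against 281, 280 and 284 CPM in WT myoblasts. In myotubes it was at 16.5, 35.9 and 18.5 CPM in *mdx* against 79.8, 50.2 and 40.9 CPM in WT. All myotube libraries lay below all myoblast libraries in each genotype, and *mdx* myotubes lay below WT myotubes. *Id1* fell on differentiation by 3.48 ± 0.40 on the log2 scale in *mdx* (adjusted p = 0.000688) and by 2.29 ± 0.25 in WT (adjusted p = 0.000311).

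*Id3* (chromosome 4, 136143497 to 136145755) was at 424, 579 and 705 CPM in *mdx* myoblasts against 567, 527 and 611 CPM in WT myoblasts. It was at 12.4, 33.8 and 18.0 CPM in *mdx* myotubes against 73.4, 49.96 and 34.2 CPM in WT myotubes. Its fall on differentiation was the largest among the members tested in each genotype, 4.71 ± 0.44 on the log2 scale in *mdx* (adjusted p = 0.00034) and 3.42 ± 0.29 in WT (adjusted p = 0.000124). The myotube libraries of the genotypes did not overlap, although the nearest, 33.8 CPM in *mdx* and 34.2 CPM in WT, were almost equal.

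*Id2* (chromosome 12, 25093799 to 25097140), which in other cells also binds the retinoblastoma protein, was at 114, 204 and 206 CPM in *mdx* myoblasts against 210, 195 and 172 CPM in WT myoblasts. It was at 16.0, 19.9 and 21.2 CPM in *mdx* myotubes against 27.4, 27.9 and 19.7 CPM in WT myotubes. The genotypes overlapped in both states. *Id2* fell on differentiation by 3.18 ± 0.26 on the log2 scale in *mdx* (adjusted p = 0.000205) and by 2.93 ± 0.15 in WT (adjusted p = 3.14e-06).

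*Smad6* (chromosome 9, 63953076 to 64022059) fell with them. It was at 10.5, 18.7 and 23.4 CPM in *mdx* myoblasts and 19.5, 22.3 and 22.3 CPM in WT myoblasts, and at 7.77, 4.14 and 6.46 CPM in *mdx* myotubes and 6.18, 5.65 and 5.48 CPM in WT myotubes. No myotube library reached any myoblast library of its genotype. The log2 fold change was -1.48 ± 0.37 in *mdx* (adjusted p = 0.0146, and 0.0501 without *mdx* myoblast replicate 3) and -1.87 ± 0.11 in WT (adjusted p = 3.05e-06).

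**Figure D2:**
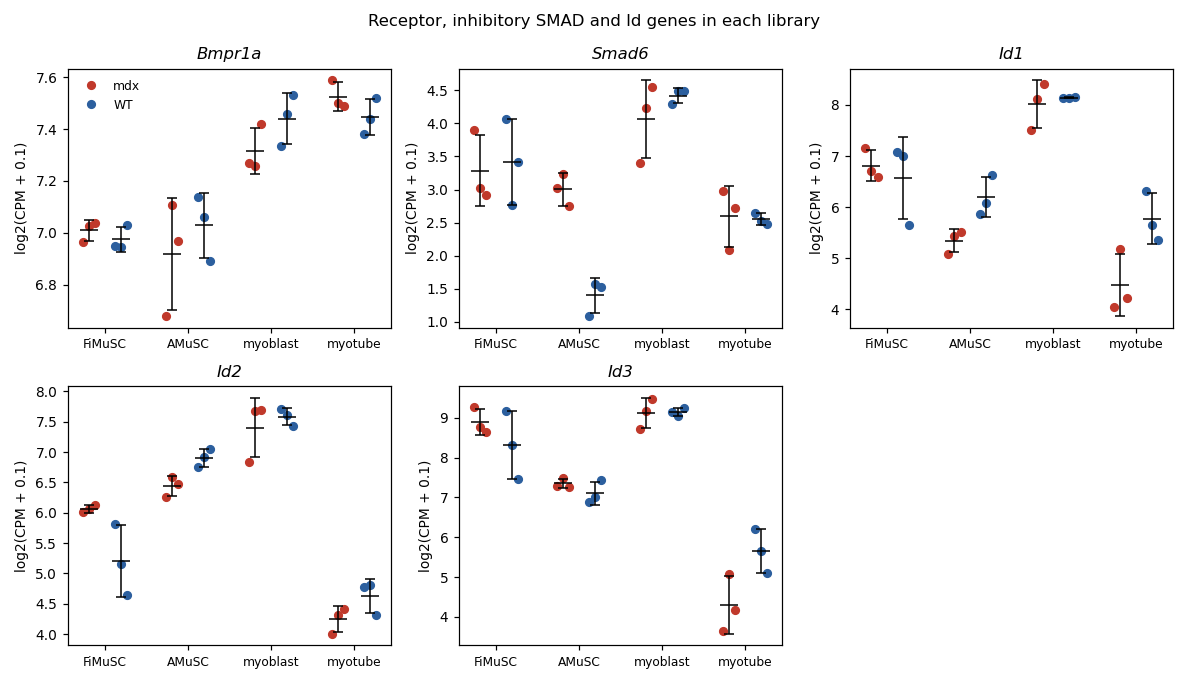
Level of *Bmpr1a*, *Smad6*, *Id1*, *Id2* and *Id3* in each library as log2(CPM + 0.1), by cell state, with *mdx* (red) left of WT (blue); black marks are the mean and SD of 3 libraries. In each genotype the *Id* genes are high in myoblasts and lower in myotubes, and *Smad6* is lowest in WT AMuSCs (2.03 to 2.87 CPM).

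Thus 4 of the 8 members tested were called on differentiation in *mdx* and 4 of the 7 tested in WT, all lower in myotubes, where 26.5% and 34.5% of all genes tested were called lower. Changes on this scale were general, as 52.2% of all genes in *mdx* and 69.5% in WT were called in either direction. The difference between the genotypes in the response to differentiation was called for 0 of the 8 members tested by edgeR, with 0.0592% of all genes called. Of these members, 2 had an unadjusted p under 0.05, *Id1* (log2 difference -1.16 ± 0.47) and *Id3* (-1.26 ± 0.51), and DESeq2 called 0. The larger fitted falls of both genes in *mdx* are therefore not shown to differ from those in WT.

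**Figure D3:**
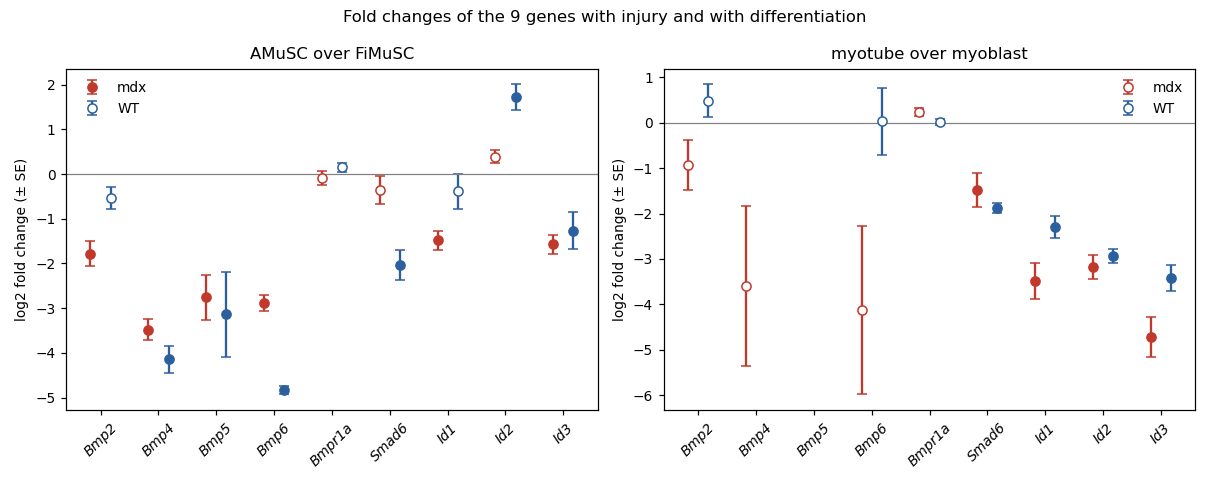
Log2 fold changes (± SE) of the 9 genes in AMuSCs over FiMuSCs (left) and in myotubes over myoblasts (right), *mdx* in red left of WT in blue; filled points have an adjusted p under 0.05, and genes too low to be tested have no point. *Bmp4*, *Bmp5* and *Bmp6* are lower in AMuSCs in each genotype, and *Id1*, *Id2*, *Id3* and *Smad6* are lower in myotubes.

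With injury *Id1*, *Id2* and *Id3* moved apart from each other. *Id3* was at 157, 179 and 154 CPM in *mdx* AMuSCs against 620, 435 and 402 CPM in *mdx* FiMuSCs, and at 117, 129 and 172 CPM in WT AMuSCs against 577, 318 and 176 CPM in WT FiMuSCs. It fell in *mdx* by 1.58 ± 0.20 on the log2 scale (adjusted p = 0.00194) and in WT by 1.26 ± 0.42 (adjusted p = 0.038). The WT call ended in 5 of the 6 fits that left out a library and held without WT FiMuSC replicate 3, the FiMuSC library nearest to the AMuSC libraries. Leaving out WT FiMuSC replicate 1 brought the change to -0.74 (adjusted p = 0.0933), and the call also ended without WT FiMuSC replicate 2 or any of the WT AMuSC replicates.

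*Id1* was at 33.9, 43.0 and 45.4 CPM in *mdx* AMuSCs against 143, 104 and 95.6 CPM in *mdx* FiMuSCs, with no overlap. In WT it was at 58.5, 67.5 and 99.0 CPM in AMuSCs against 135, 129 and 50.1 CPM in FiMuSCs, and these overlapped. *Id1* fell with injury in *mdx* by 1.49 ± 0.21 on the log2 scale (adjusted p = 0.00251), and in WT its log2 fold change was -0.39 ± 0.40 (adjusted p = 0.429). The difference of these responses was -1.13 ± 0.48 (adjusted p = 0.14), so they are not shown to differ. Without WT FiMuSC replicate 3 the WT change was -0.68 (adjusted p = 0.035).

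*Id2* went the other way. It was at 107, 120 and 133 CPM in WT AMuSCs against 56.3, 35.6 and 24.8 CPM in WT FiMuSCs, a rise of 1.72 ± 0.29 on the log2 scale (adjusted p = 0.00238). In *mdx* it was at 76.8, 96.6 and 89.1 CPM in AMuSCs against 64.1, 66.5 and 69.7 CPM in FiMuSCs, and the change of 0.39 ± 0.14 did not pass (adjusted p = 0.0771, and 0.0305 without *mdx* AMuSC replicate 1). The *mdx* response was lower than the WT response by 1.36 ± 0.32 (log2 difference -1.36, adjusted p = 0.0166). *Id2* libraries of *mdx* thus lay between those of WT FiMuSCs and WT AMuSCs in both states.

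*Smad6* was at 8.06, 9.30 and 6.61 CPM in *mdx* AMuSCs against 14.9, 8.06 and 7.47 CPM in *mdx* FiMuSCs, which overlapped. In WT it was at 2.03, 2.87 and 2.79 CPM in AMuSCs against 16.6, 6.72 and 10.6 CPM in FiMuSCs, which did not. It fell with injury in WT by 2.04 ± 0.34 on the log2 scale (adjusted p = 0.000906), while in *mdx* its log2 fold change was -0.35 ± 0.31 (adjusted p = 0.456).

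Over the 9 members, all tested, 6 were called with injury in *mdx*, each lower in AMuSCs (*Bmp2*, *Bmp4*, *Bmp5*, *Bmp6*, *Id1* and *Id3*), where 11.7% of all genes were called lower and 27.3% in either direction. In WT 5 were called lower in AMuSCs (*Bmp4*, *Bmp5*, *Bmp6*, *Id3* and *Smad6*) and 1 higher (*Id2*), where 33% of all genes were called lower, 31.6% higher and 64.6% in all. The median log2 fold change of the members was -1.58 in *mdx* and -1.26 in WT, against -0.02 and -0.07 over all genes tested. These medians are a description only, as the members were chosen with earlier results of these data known. Endothelial markers moved with these falls, 10 of 10 being called lower in AMuSCs in each genotype. Among them *Cdh5* was at 0.896, 4.61 and 10.0 CPM in *mdx* AMuSCs against 169, 58.2 and 62.7 CPM in *mdx* FiMuSCs, and at 0.361, 0.143 and 1.45 CPM in WT AMuSCs against 41.2, 21.6 and 29.5 CPM in WT FiMuSCs. Also called lower in AMuSCs were fibro-adipogenic progenitor markers (5 of 9 in *mdx* and 8 of 9 in WT), pericyte and smooth muscle markers (5 of 8 in *mdx* and 8 of 8 in WT), Schwann cell markers (4 of 6 in *mdx* and 5 of 6 in WT) and, in WT, leukocyte and macrophage markers (7 of 10). Members of these lists also went the other way. In *mdx* 1 fibro-adipogenic marker, 2 pericyte and smooth muscle markers and 1 Schwann cell marker were called higher, and in WT 1 Schwann cell marker was. The part of these cells in the falls of the BMP genes was not tested.

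The responses to injury differed between the genotypes for 4 of the 9 members, where 15.1% of all genes were called, 8.14% with a higher and 6.98% with a lower response in *mdx*. *Bmp6* fell less in *mdx* (log2 difference 1.93 ± 0.18, adjusted p = 0.000453), and *Smad6*, which was called in WT alone, also had a higher response in *mdx* (1.66 ± 0.49, adjusted p = 0.0401). *Id2* (-1.36) and *Bmp2* (-1.27 ± 0.38, adjusted p = 0.0412) had a lower response in *mdx*. The calls of *Bmp6* and *Id2* held when any 1 of the 12 libraries was left out, but that of *Bmp6* ended with all 24 libraries in a single fit (2.05, adjusted p = 0.276). That of *Bmp2* ended in 9 of the 12 such fits (log2 difference -1.44 to -1.09 over all 12), all but those without replicate 1 of WT AMuSCs, *mdx* FiMuSCs or *mdx* AMuSCs. That of *Smad6* also ended in 9 of 12 (1.28 to 2.05 over all 12), all but those without WT FiMuSC replicate 2, *mdx* FiMuSC replicate 1 or *mdx* AMuSC replicate 3. For *Bmp4* the log2 difference was 0.64 ± 0.35 (adjusted p = 0.25).

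Between the genotypes, edgeR called members in AMuSCs and in no other state, and whether the states differ in this was tested only for the responses above. Of 8 tested in AMuSCs, 3 were called higher in *mdx* AMuSCs, where 14.8% of all genes were called higher, and 2 lower, where 8.95% were called lower (23.7% in either direction). The higher ones were the ligands *Bmp6* (log2 fold change 2.08 ± 0.14, adjusted p = 0.000752) and *Bmp4* (0.95 ± 0.18, adjusted p = 0.0106) and the inhibitor *Smad6* (1.60 ± 0.25, adjusted p = 0.00518). The lower ones were the targets *Id1* (-0.90 ± 0.21, adjusted p = 0.0206) and *Id2* (-0.48 ± 0.13, adjusted p = 0.0304). *Id3* (0.20 ± 0.16, adjusted p = 0.398), *Bmp2* (-0.64 ± 0.30, adjusted p = 0.158) and *Bmpr1a* (-0.13 ± 0.14, adjusted p = 0.535) were not called. The 5 called genes were also those whose libraries did not overlap, as held for 45.5% of all genes.

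When all 24 libraries shared a single fit, *Smad6* remained called of these 5, and *Bmp6* (2.10, adjusted p = 0.0823), *Bmp4* (0.98, 0.428), *Id1* (-0.88, 0.0762) and *Id2* (-0.46, 0.165) did not pass. *Bmp6* and *Smad6* were called without any 1 of the 6 libraries, at log2 fold changes of 2.01 to 2.13 and 1.46 to 1.70. The call of *Bmp4* ended without WT AMuSC replicate 2 or 3 (0.89 in both), that of *Id1* also without either of these (-0.98 and -0.66), and that of *Id2* without any WT replicate or *mdx* replicate 1 (-0.56 to -0.41). Correction for the mean transcript length in each library brought *Smad6* to 0.97 (adjusted p = 0.209), and a 273-base transcript of *Smad6* was at 0.859 TPM in WT AMuSC replicate 2 and at 0 in the other AMuSC libraries of both genotypes.

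Genes listed as markers of other cells moved with the *mdx* AMuSC libraries. Of 10 leukocyte and macrophage markers, 5 were called higher and all 10 had no overlap, and the summed level was 151 to 4373 CPM in *mdx* AMuSCs against 10.5 to 29.4 CPM in WT AMuSCs. Fibro-adipogenic markers summed to 1889 to 2881 CPM in *mdx* AMuSCs against 574 to 681 CPM in WT AMuSCs (6 of 9 called higher), and pericyte and smooth muscle markers to 329 to 591 CPM against 114 to 153 CPM (5 of 8). Cultured WT myoblasts held 601 to 741 CPM of the first sum, and WT myotubes 1186 to 1240 CPM of the second. In the first, *Col3a1* reached 4039 CPM, *Col1a1* 505 CPM and *Cd34* 340 CPM in their highest libraries, and the other genes at most 36.1 CPM. Its genes called higher in *mdx* AMuSCs, as log2 fold changes, were *Col1a1* (4.56), *Dpp4* (2.84), *Ly6a* (2.14), *Col3a1* (1.79), *Pdgfra* (1.47) and *Dcn* (1.46). *Lum* (2.08), *Pi16* (0.81) and *Cd34* (-0.35) were not called. Endothelial markers were called higher in 4 of 9 tested. The MuSC marker *Pax7* was itself at 822, 855 and 751 CPM in *mdx* AMuSCs against 365, 371 and 331 CPM in WT AMuSCs. Without the library at 4373 CPM of leukocyte markers, *mdx* replicate 1, the log2 fold change was 2.01 for *Bmp6*, 1.04 for *Bmp4*, 1.58 for *Smad6* and -0.79 for *Id1*, which were still called, and -0.41 for *Id2*, which was not (adjusted p = 0.0572). The part of these cells in the result was not tested.

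In FiMuSCs 0 of the 9 members were called by edgeR, with 9.67% of all genes called. *Bmp5* (1.80, adjusted p = 0.0809) and *Id2* (0.79 ± 0.27, adjusted p = 0.128) were under 0.05 before adjustment, and both were called by DESeq2 (2 members). With *Bmp2* they were the 3 members without overlap between the genotypes, all higher in *mdx*, as held in either direction for 31.8% of all genes. *Id2* was at 64.1 to 69.7 CPM in *mdx* FiMuSCs against 24.8 to 56.3 CPM in WT FiMuSCs. Without WT FiMuSC replicate 1, *Id2* (1.15, adjusted p = 0.0158) and *Bmp5* (2.43, adjusted p = 0.0326) were called. Leukocyte markers summed to 407 to 1371 CPM in *mdx* FiMuSCs against 64.02 to 311 CPM in WT FiMuSCs. Endothelial markers summed to 322 to 839 CPM against 317 to 391.7 CPM, and *mdx* replicate 1 held the most *Cdh5*. Of the *mdx* FiMuSC libraries, replicate 1 was also the highest for *Bmp4*, *Bmp5*, *Bmp6*, *Id1*, *Id3* and *Smad6* and the lowest for *Bmp2*, *Id2* and *Bmpr1a*. The part of these other cells in the values was not tested.

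In culture no member was called between the genotypes by edgeR on the libraries of a single state. In myoblasts 0 of the 8 members tested were called by edgeR, with 0.36% of all genes called. *Bmp2* (1.45 ± 0.59) and *Bmp6* (5.09) had an unadjusted p under 0.05 and were the 2 that DESeq2 called. *Bmp2* was highest in *mdx* replicate 1 and moved to 0.72 without it. In myotubes 0 of the 7 members tested were called by edgeR, with 0.591% of all genes called. *Id1* (-1.28 ± 0.36, adjusted p = 0.236), *Id3* (-1.30 ± 0.42, adjusted p = 0.276) and *Id2* (-0.40 ± 0.16, adjusted p = 0.351) were under 0.05 before adjustment (3 members), and *Id1* was the 1 member called by DESeq2. *Id1* and *Id3* were the 2 members without overlap, both lower in *mdx* myotubes, as held in either direction for 21.1% of all genes.

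**Figure D4:**
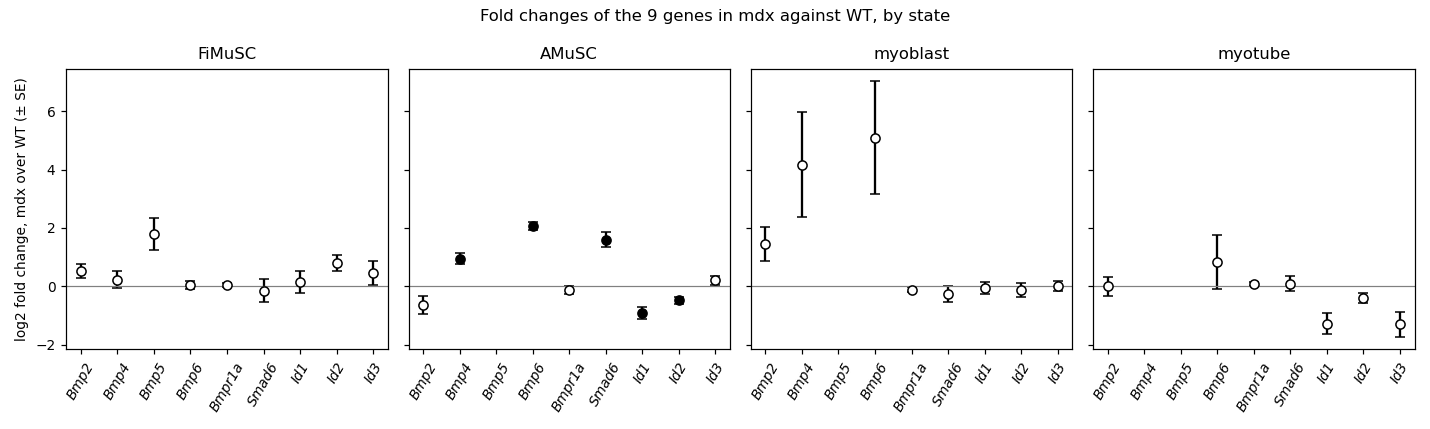
Log2 fold changes (± SE) of the 9 genes in *mdx* over WT libraries within each cell state; filled points have an adjusted p under 0.05, and genes too low to be tested have no point. Filled points are found in AMuSCs alone, and *Bmp4* and *Bmp6* in myoblasts have the widest bars.

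The rest of the pathway was read from 7 lists of 56 other genes: ligands, receptors and co-receptors, SMAD transducers, intracellular inhibitors, extracellular antagonists, other targets, and the bHLH partners of ID proteins. With injury 5 of the 46 tested were called higher in AMuSCs and 11 lower in *mdx*, and 10 of 45 higher and 24 lower in WT, where 27.3% of all genes in *mdx* and 64.6% in WT were called, with medians of -0.16 and -0.64 against -0.02 and -0.07 over all genes. The ligand *Gdf6* fell with *Bmp4* and *Bmp6*, by 2.46 ± 0.33 on the log2 scale in *mdx* and 2.31 ± 0.30 in WT. The antagonist *Chrdl2*, whose product binds BMPs outside the cell, fell the most of the list genes named here, by 4.65 ± 0.23 in *mdx* and 6.16 ± 0.24 in WT. The co-receptor genes *Rgmb* (-1.81 ± 0.26 in *mdx* and -2.58 ± 0.16 in WT) and *Eng* (-1.84 ± 0.30 in *mdx* and -3.12 ± 0.24 in WT) fell too, and *Eng* is also a gene of endothelial cells. Of the 4 other targets tested, 1 was called in *mdx* and 2 in WT, all lower. The target *Id4* fell in each genotype, by 2.18 ± 0.29 in *mdx* and 2.27 ± 0.33 in WT, and *Hey1* in WT (-2.11 ± 0.13). None of the 4 SMAD transducer genes was called with injury in either genotype by edgeR, with 0 at an unadjusted p under 0.05 and 0 called by DESeq2.

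In AMuSCs 14 of the 45 other pathway genes tested were called higher in *mdx* and 2 lower, with a median of 0.22 against 0.04 over all genes, of which 14.8% were called higher and 8.95% lower. The higher ones included the receptor and co-receptor genes *Acvrl1* (2.63 ± 0.38), *Eng* (2.11 ± 0.22) and *Rgma* (0.90 ± 0.10), of which *Acvrl1* and *Eng* are known mainly from endothelium. They also included the ligand *Gdf6* (1.70 ± 0.38), the secreted binding proteins *Fstl1* (2.16 ± 0.20) and *Fstl3* (2.02 ± 0.28) and the targets *Msx1* (2.32 ± 0.31) and *Hey1* (1.17 ± 0.14). Of the 11 antagonists tested, 3 were called higher and 1 lower, *Chrdl2* (-0.98 ± 0.28). Among the bHLH partners, *Myf5* was higher (1.05 ± 0.17) and *Myod1* lower (-0.95 ± 0.28), genes of early and of committed myogenic cells. In FiMuSCs 8 of 46 were called higher and 8 lower in *mdx*, where 9.67% of all genes were called. The antagonists *Chrdl2* (-2.57 ± 0.23), *Bmper* (-1.49 ± 0.24) and *Chrd* (-1.44 ± 0.18) were among the lower ones, and *Gdf6* (1.80 ± 0.26) was among the higher ones. Of the 11 antagonists tested, 4 were called lower and 2 higher, *Fst* (4.31, adjusted p = 0.0326) and *Chrdl1* (1.10, adjusted p = 0.0377).

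The responses to injury differed between the genotypes for 14 of the 48 other pathway genes tested, 12 with a higher and 2 with a lower response in *mdx*, where 8.14% of all genes had a higher and 6.98% a lower response. The antagonists *Fstl1* (log2 difference 2.68 ± 0.29), *Bmper* (2.12 ± 0.34) and *Chrd* (1.83 ± 0.32) were among the 12, as were the target *Hey1* (1.91 ± 0.35) and the receptor gene *Acvrl1* (1.67 ± 0.41). The antagonist *Fst* was among the 2 with a lower response (-4.08, adjusted p = 0.0347). Of all 12 antagonists tested, 5 had a higher and 1 a lower response in *mdx*.

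On differentiation 13 of 48 were called higher and 18 lower in *mdx*, and 15 of 48 higher and 24 lower in WT, where 52.2% of all genes in *mdx* and 69.5% in WT were called. The SMAD transducers were lower in myotubes, 3 of 4 in *mdx* and 4 of 4 in WT, among them *Smad5* (-0.58 ± 0.09 in *mdx* and -0.88 ± 0.06 in WT) and *Smad4* (-0.50 ± 0.12 and -0.73 ± 0.06). *Smad7*, the other inhibitory SMAD, fell like *Smad6*, by 2.13 ± 0.26 on the log2 scale in *mdx* and 2.89 ± 0.08 in WT. The targets *Atoh8* (-3.54 ± 0.37 and -2.95 ± 0.27) and *Id4* (-2.28 ± 0.53 and -1.93 ± 0.25) fell with the other *Id* genes. Of the 5 other targets tested, 2 were called lower in *mdx* and 4 in WT, and 0 higher. The other lists were mixed. Of 11 antagonists, 4 were called higher and 4 lower in *mdx*, and 5 higher and 5 lower in WT. Of 10 receptor and co-receptor genes, 3 were called higher and 0 lower in *mdx*, and 4 higher and 2 lower in WT. The E protein gene *Tcf3*, which encodes a binding partner of ID proteins, fell as well (-1.86 ± 0.10 and -2.22 ± 0.06), and *Tcf4* rose (0.77 ± 0.11 and 1.08 ± 0.06). Of the ligands, *Gdf5* rose to 1.64 ± 0.765 CPM in *mdx* myotubes against 0.0120 ± 0.0208 CPM in *mdx* myoblasts, and to 4.44 ± 2.06 CPM in WT myotubes against 0.0652 ± 0.0286 CPM in WT myoblasts. In the comparisons of *mdx* with WT, edgeR called 0 of the other pathway genes in myoblasts (of 45, with 10 at an unadjusted p under 0.05 and 5 called by DESeq2) and 0 in myotubes (of 46, with 6 at an unadjusted p under 0.05 and 1 called by DESeq2).

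Genes with the most similar pattern over the 24 libraries, by Pearson correlation of log2 CPM among protein-coding genes with a mean log2 CPM of at least 2, are given as a description, since the libraries share their groups. For *Bmp6* they were *Chodl* and *Tgfbr3* (0.99 both), and for *Bmp4* *Col15a1* and *Chodl* (0.99 both). For *Id1* they were *Apcdd1* and *Osbp2* (both 0.91), for *Id2* *Gnb4* (0.97) and *Bard1* (0.96), for *Id3* *Rgs5* (0.96) and *Rgs4* (0.94) and for *Smad6* *G0s2* (0.93) and *Pdzd4* (0.90). For *Bmpr1a* they were *Ptpn11* (0.95) and *Zfp617* (0.94), for *Bmp5* *Inafm1* (0.89) and *Btg2* (0.87) and for *Bmp2*, whose pattern was shared least, *B4galt4* (0.72) and *Chic2* (0.70). Among the members themselves *Id1* and *Id3* correlated at 0.88, *Id2* and *Id3* at 0.78 and *Id1* and *Smad6* at 0.63. The ligand *Bmp6* correlated at 0.005 with *Id1*, 0.06 with *Id2*, 0.39 with *Id3* and -0.005 with *Smad6*. For *Bmp4* these values were 0.06, 0.13, 0.44 and -0.008. With *Bmpr1a* the correlation was -0.83 for *Bmp6* and -0.82 for *Bmp4*.

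In the order of group means, neighbouring groups mostly overlapped. For *Id1* the single gap lay between *mdx* myoblasts (182 to 342 CPM) and *mdx* FiMuSCs (95.6 to 143 CPM), and for *Bmp2* there was none. *Id2* had 3 gaps among its 7 neighbouring pairs, WT AMuSCs over *mdx* AMuSCs, *mdx* AMuSCs over *mdx* FiMuSCs, and *mdx* FiMuSCs over WT FiMuSCs. For *Smad6* the single gap set WT AMuSCs (2.03 to 2.87 CPM) below WT myotubes (5.48 to 6.18 CPM).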

How the data were processed

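Bulk polyA RNA-seq of 24 libraries in 8 groups of 3 was used, grouped by the submitters' labels. The authors deposited, for each transcript, an expected count and a TPM value, as Salmon writes them. Salmon 0.13.1, GRCm38 and DESeq2 are named in the submitters' notes on processing, and the strand setting and annotation release are not given in the sources used here. Coordinates and transcript names are from GENCODE M21 on GRCm38.

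Expected counts were summed per gene and rounded. Each comparison was fitted on its 6 libraries (12 for a difference of responses) with filterByExpr, TMM and edgeR 4.0.16 (quasi-likelihood, robust, two-sided, prior count of 2 for log2 fold changes, Benjamini-Hochberg adjustment over all genes tested, threshold 0.05) in R 4.3.3. The SE belongs to the estimate before the prior count and is left out where low counts make the pair differ. Alternatives were relative log expression scaling, no filter, a transcript length offset, all 24 libraries in a single fit, a replicate block, leaving out each library and DESeq2 1.42.0. The tests were checked on simulated counts.

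The members and the lists of other genes were chosen with earlier results of these data known. Named genes are all members and, per list and comparison, up to 3 genes with the smallest p among those called without overlap, and for likeness the 2 highest correlations. *Fst*, *Chrdl1* and, in AMuSCs, *Chrdl2* were added as antagonists called against the direction of the others named. The MuSC, endothelial and leukocyte markers named check the labels and the purity of the libraries, and *Cdh5* and the fibro-adipogenic markers named were picked after their values were seen. Replicates are biological per the study's methods, and p-values measure the spread between these libraries. Libraries differed more than counting noise (Spearman 0.947 to 0.986 within groups), and none was a copy of another. Sequences are RefSeq promoters.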

Additional observations from a re-analysis of the deposited data

Results flagged for a closer look

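The response to injury differed between the genotypes in 4 of the 9 genes by a test of the difference itself (edgeR quasi-likelihood test, adjusted p under 0.05 over all genes). The log2 response in *mdx* minus that in WT was 1.93 for *Bmp6* (adjusted p = 0.000453) and 1.66 for *Smad6* (adjusted p = 0.0401). It was -1.36 for *Id2* (adjusted p = 0.0166) and -1.27 for *Bmp2* (adjusted p = 0.0412). Of these calls, that of *Id2* held in every alternative run, and that of *Bmp6* ended with all 24 libraries in a single fit (2.05, adjusted p = 0.276). Those of *Smad6* and *Bmp2* each ended in 9 of the 12 fits that left out a library. *Smad6* also missed the threshold with the length offset (1.24, adjusted p = 0.306) and the replicate block (adjusted p = 0.0525), and *Bmp2* without the filter, with the length offset, with the block and with all 24 libraries (adjusted p = 0.0753 to 0.199). The *mdx* AMuSC libraries that enter these tests held 151 to 4373 CPM of summed leukocyte markers against 10.5 to 29.4 CPM in WT AMuSCs, and the part of these cells was not tested.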

How the results depend on the processing

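Of 1085 values of single members under an alternative, 986 kept their direction and their side of the threshold, 47 lost the call, 20 gained it and 32 changed sign, and the causes were not tested. With DESeq2 the members called were 2 in FiMuSCs, 2 in myoblasts and 1 in myotubes for *mdx* over WT, against 0 in each by edgeR. With a transcript length offset they were 1 in FiMuSCs, 3 in AMuSCs and 2 for the difference of the injury responses, against 0, 5 and 4. With all 24 libraries in a single fit they were 2 in AMuSCs (*Smad6* and *Bmp5*), 2 in myoblasts (*Bmp4* and *Bmp6*) and 2 for that difference. Leaving out each library gave 0 to 2 in FiMuSCs, 2 to 6 in AMuSCs, 0 in myoblasts and myotubes, 6 to 7 with injury in *mdx*, 5 to 7 in WT and 2 to 4 for their difference. The AMuSC counts include *Bmp5* where it passed the filter and was called.

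Same-numbered replicates correlated at -0.159 to 0.357 in their deviations from the group means over all pairwise comparisons, and the labels give them only a number in common. Between myotubes and myoblasts they correlated at 0.032 to 0.101 in WT, against -0.091 to 0.003 for different numbers. In *mdx* these values were 0.058 to 0.357 against -0.218 to 0.170. Whether myotube and myoblast libraries of the same number share a source is not given, and the tests reported did not pair them. With the replicate block the members called were 1 in FiMuSCs (*Bmp5*, 1.88) and 2 for the difference of the injury responses, the genes called were 1148 in FiMuSCs, 7 in myoblasts, 15 in myotubes and 0 for the difference of the differentiation responses, and *Id3* in myoblasts was -0.013 and *Bmp2* in myotubes 0.025.

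None of the values that changed sign was called, by the test as reported or under the alternative. Without the filter *Bmp2* was 0.000187 in myotubes and *Bmpr1a* -0.016 on differentiation in WT. With the length offset *Bmp2* was 0.017 and *Smad6* -0.21 in myotubes, *Bmp5* -0.30 for the difference of the injury responses, and *Bmp6* -0.88 and *Bmpr1a* -0.13 on differentiation in WT. Leaving out each library gave in FiMuSCs -0.084 to 0.17 for *Bmp6*, -0.20 to 0.36 for *Id1* and -0.54 to 0.23 for *Smad6*. In myoblasts it gave -0.28 to 0.14 for *Id1*, -0.26 to 0.10 for *Id2* and -0.17 to 0.18 for *Id3*, and in myotubes -0.18 to 0.35 for *Bmp2* and -0.14 to 0.30 for *Smad6*. With injury in *mdx* it gave -0.18 to 0.043 for *Bmpr1a* and -0.50 to 0.033 for *Smad6*, and -0.21 to 0.80 for the *Bmp5* difference. On differentiation it gave -4.42 to 0.064 for *Bmp4* in *mdx*, -0.42 to 0.37 for *Bmp6* and -0.042 to 0.060 for *Bmpr1a* in WT, and -2.35 to 2.11 for the *Bmp4* difference.

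The genes called of all tested moved more, against 1876 (FiMuSCs), 4582 (AMuSCs), 62 (myoblasts) and 95 (myotubes) for *mdx* over WT. DESeq2 called 3130 in FiMuSCs, 889 in myoblasts and 686 in myotubes, the length offset 1220, 2886, 27 and 54 in the 4 states, no filter 124 in myoblasts and 196 in myotubes, and the fit of 24 libraries 432 and 250 in those. Leaving out each library gave 511 to 2503, 1416 to 6305, 9 to 125 and 14 to 235 in these 4 states, 2663 to 5919 with injury in *mdx* (5357 with all) and 1793 to 4878 for the difference of the injury responses (3189 with all, 1787 with the length offset). For the difference of the differentiation responses (11 with all) it gave 0 to 15, relative log expression scaling 7, the fit of 24 libraries 7, the length offset 1 and DESeq2 287. *Bmp5* outside FiMuSCs, and *Bmp4* and *Bmp6* in culture, are limited by their low counts.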
